A study of Mus musculus with 24 samples.

Results

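The genes described here form 1 set of 10: Tet1, Tet2, Tet3, Dnmt3a, Asxl1, Asxl2, Ezh2, Kmt2a, Kmt2d and Setbp1. They encode enzymes that write or erase marks on DNA and histones, and partners of chromatin regulators, and their human counterparts are recurrently mutated or rearranged in myeloid leukemia. The 10 genes were chosen by symbol from the 24421 genes of a bulk RNA-seq count table, and all 10 were among the 12742 genes with enough counts to test. The table came from bone marrow mononuclear cells of mice with the Shp2 E76K allele, an activating form of the phosphatase encoded by Ptpn11 that models juvenile myelomonocytic leukemia (JMML). The treated groups received ACP196, which blocks Bruton's tyrosine kinase (BTK inhibitor), ACP319, an inhibitor of the p110 delta form of phosphoinositide 3-kinase (PI3K inhibitor), or the combination, and the last group received vehicle, in each case for 3 weeks. Each of the 4 groups had 3 specimens, numbered as replicates 4 to 6 (BTK inhibitor), 7 to 9 (PI3K inhibitor), 10 to 12 (combination) and 1 to 3 (vehicle). All 4 groups carried Shp2 E76K, so vehicle specimens are mutant marrow without an inhibitor and not healthy marrow. The labels give neither the age of the mice nor the promoter or Cre that drives the allele, and whether every specimen was taken from its own mouse is not stated, so the p-values reflect only variation among the specimens at hand.

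DNA methylation is laid down at CG pairs by DNA methyltransferases such as Dnmt3a and taken off stepwise by the Tet dioxygenases, which oxidise 5-methylcytosine. Polycomb repressive complex 2, with Ezh2 as its catalytic subunit, methylates histone H3 at lysine 27 and is set against the MLL/COMPASS methyltransferases, such as Kmt2a and Kmt2d, which methylate histone H3 at lysine 4. Asxl1 and Asxl2 are cofactors of the deubiquitinase Bap1, and Setbp1 binds the oncoprotein Set. In human JMML, SETBP1 and ASXL1 are among the genes in which secondary mutations occur, and TET2 and DNMT3A are recurrent targets in clonal hematopoiesis and other myeloid neoplasms.

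The start-site windows of 3 of the genes are shown, picked from the comparison of the PI3K inhibitor with vehicle. Tet2 and Kmt2d had the smallest adjusted p of the 10. Ezh2 was the 1 gene with a difference in the other direction, although that difference was not called. Each window holds 250 bases before and 50 bases after the annotated start, from RefSeq on GRCm38.p6, the assembly of mm10. All 3 are read 5′ to 3′ on the minus strand, and capitals mark CG pairs, the sites of DNA methylation. The windows lie at chr3:133544341-133544640 (Tet2), chr15:98871156-98871455 (Kmt2d) and chr6:47594981-47595280 (Ezh2).
Tet2: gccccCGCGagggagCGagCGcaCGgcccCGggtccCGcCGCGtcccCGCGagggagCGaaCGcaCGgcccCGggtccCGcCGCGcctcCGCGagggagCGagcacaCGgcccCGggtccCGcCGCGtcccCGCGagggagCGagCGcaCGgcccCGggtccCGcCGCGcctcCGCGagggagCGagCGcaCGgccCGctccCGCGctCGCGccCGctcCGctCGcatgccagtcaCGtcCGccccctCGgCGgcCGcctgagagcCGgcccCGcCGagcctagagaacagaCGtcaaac
Kmt2d: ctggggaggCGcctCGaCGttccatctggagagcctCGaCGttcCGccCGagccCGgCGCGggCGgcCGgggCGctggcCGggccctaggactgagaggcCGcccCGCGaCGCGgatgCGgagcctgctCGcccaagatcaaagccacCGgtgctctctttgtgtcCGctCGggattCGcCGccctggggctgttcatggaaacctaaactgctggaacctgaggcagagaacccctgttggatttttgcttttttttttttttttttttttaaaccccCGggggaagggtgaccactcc
Ezh2: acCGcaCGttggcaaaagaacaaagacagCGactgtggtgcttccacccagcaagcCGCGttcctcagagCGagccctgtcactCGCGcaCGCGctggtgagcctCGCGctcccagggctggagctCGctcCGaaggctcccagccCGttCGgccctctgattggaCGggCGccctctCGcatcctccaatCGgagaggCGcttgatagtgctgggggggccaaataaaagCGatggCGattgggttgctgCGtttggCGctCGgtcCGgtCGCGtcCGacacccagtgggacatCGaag
The Tet2 window had 57 CG pairs, more than 99.8% of the 32841 mouse windows of 300 bases. The Kmt2d window had 27 (more than 84.5% of windows) and the Ezh2 window had 31 (more than 89.4%), against a median of 7. On both strands, the windows of 9 of the genes were searched for CCAAT (present in 37.4% of all windows), CCGGAAGT (ETS, 3.89%), GGCGGGAA (E2F, 2.19%), the NRF1 palindrome (0.971%) and TATAAA (13.6%), none of which contains another. Ezh2 had 3 matches to CCAAT, Tet3 had 1 match to CCAAT, Asxl1 had 1 match to the E2F letters and Asxl2 had 1 match to the ETS letters. DNA methylation itself was not analysed here.

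Of these genes, 9 are long. Length, the summed exon bases used for counting, was 19827 bases for Kmt2d (chromosome 15, 98831669 to 98871205), 16439 for Kmt2a (chromosome 9, 44803355 to 44881274), 14082 for Tet1 (chromosome 10, 62804570 to 62880014) and 10906 for Tet3 (chromosome 6, 83362374 to 83441678), in the mm10 coordinates of the table. It was 9955 bases for Setbp1 (chromosome 18, 78750378 to 79109391), 9947 for Dnmt3a (chromosome 12, 3806980 to 3914443), 9181 for Tet2 (chromosome 3, 133463677 to 133544390), 9033 for Asxl2 (chromosome 12, 3426857 to 3506849) and 6674 for Asxl1 (chromosome 2, 153346139 to 153404007). These 9 were longer than 91.8% to 99.95% of tested genes, whose median was 2835 bases. Ezh2 (chromosome 6, 47530274 to 47595030), with 2667 bases, was of ordinary length. Exons of the 10 genes overlapped no exon of another gene in the table, which matters because the library kit does not mark strand.

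Total counts were 8993950 to 22154833 per specimen, and the 10 genes together held 0.0283% to 0.0931% of them. BTK inhibitor replicate 5 stood apart, with the lowest total and a share of Rn45s, a ribosomal RNA gene, of 15.4%, against 0.203% to 0.773% in the other 11 specimens. Specimens also differed in a trend with gene length, measured as the slope over tested genes of log2 CPM (the count scaled by library size), relative to the mean of the specimens, on log2 Length. The slope was -0.28, -0.35 and 0.18 in BTK inhibitor specimens, -0.10, -0.37 and -0.38 in PI3K inhibitor specimens, 0.09, 0.25 and 0.29 in combination specimens, and 0.15, 0.40 and 0.12 log2 per doubling of Length in vehicle specimens. All 3 PI3K inhibitor specimens lay below every combination and vehicle specimen. Y-linked genes, scaled by library size alone, summed to 158, 132 and 0 CPM in vehicle specimens and 134.2, 0 and 0.05 in BTK inhibitor specimens. They summed to 0.14, 104.3 and 0 CPM in PI3K inhibitor specimens and 0.22, 181.2 and 0 in combination specimens. The groups were thus not balanced for these genes. Sex was not part of the model, and its part in the differences was not tested. The 15 neutrophil markers were all detected, at a summed 64840 to 222300 CPM over the 12 specimens, in a preparation labelled as mononuclear, and the 4 hemoglobin genes of the erythroid list were at 0 in all specimens.

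**Figure D1:**
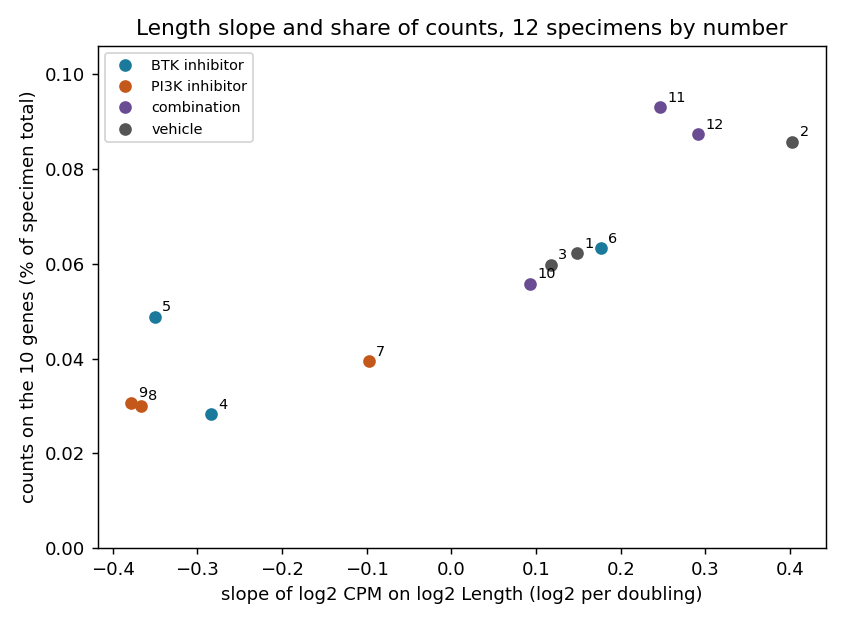
Share of each specimen's counts on the 10 genes (y axis, percent) against its slope of log2 CPM on log2 Length (x axis, log2 per doubling), with 1 point per specimen, numbered by replicate and coloured by group. PI3K inhibitor specimens lie at slopes of -0.38 to -0.10 and shares of 0.0300% to 0.0395%, and vehicle specimens at slopes of 0.12 to 0.40 and shares of 0.0599% to 0.0858%.

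Per length, Ezh2 had the highest level in every group and Asxl1 the next. Ezh2 averaged 81.6 ± 57.8 CPM per kb with the BTK inhibitor, 57.8 ± 5.87 with the PI3K inhibitor, 47.1 ± 2.79 with the combination and 36.3 ± 5.63 with vehicle (SD, n = 3 each). Asxl1 averaged 15.6 ± 5.88, 9.03 ± 1.58, 17.9 ± 3.35 and 20.0 ± 5.65 CPM per kb in the same groups. Neither overlapped the gene next in order in any group. In vehicle specimens the order went on with Kmt2d (7.54 ± 1.91), Tet3 (5.67 ± 1.93), Asxl2 (5.36 ± 0.922), Kmt2a (3.90 ± 0.980), Dnmt3a (3.68 ± 0.562) and Tet2 (3.49 ± 0.457 CPM per kb), each overlapping its neighbour. Tet1 (0.301 ± 0.137) and Setbp1 (0.108 ± 0.0316 CPM per kb) were far below the rest, at 18 to 158 and 2 to 44 counts per specimen, so that counting error weighs most on these 2 genes. With the PI3K inhibitor, Tet2 (1.07 ± 0.173 CPM per kb) and Kmt2a next above it (1.14 ± 0.140) overlapped. Dnmt3a (1.94 ± 0.284) lay above both without overlap.

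**Figure D2:**
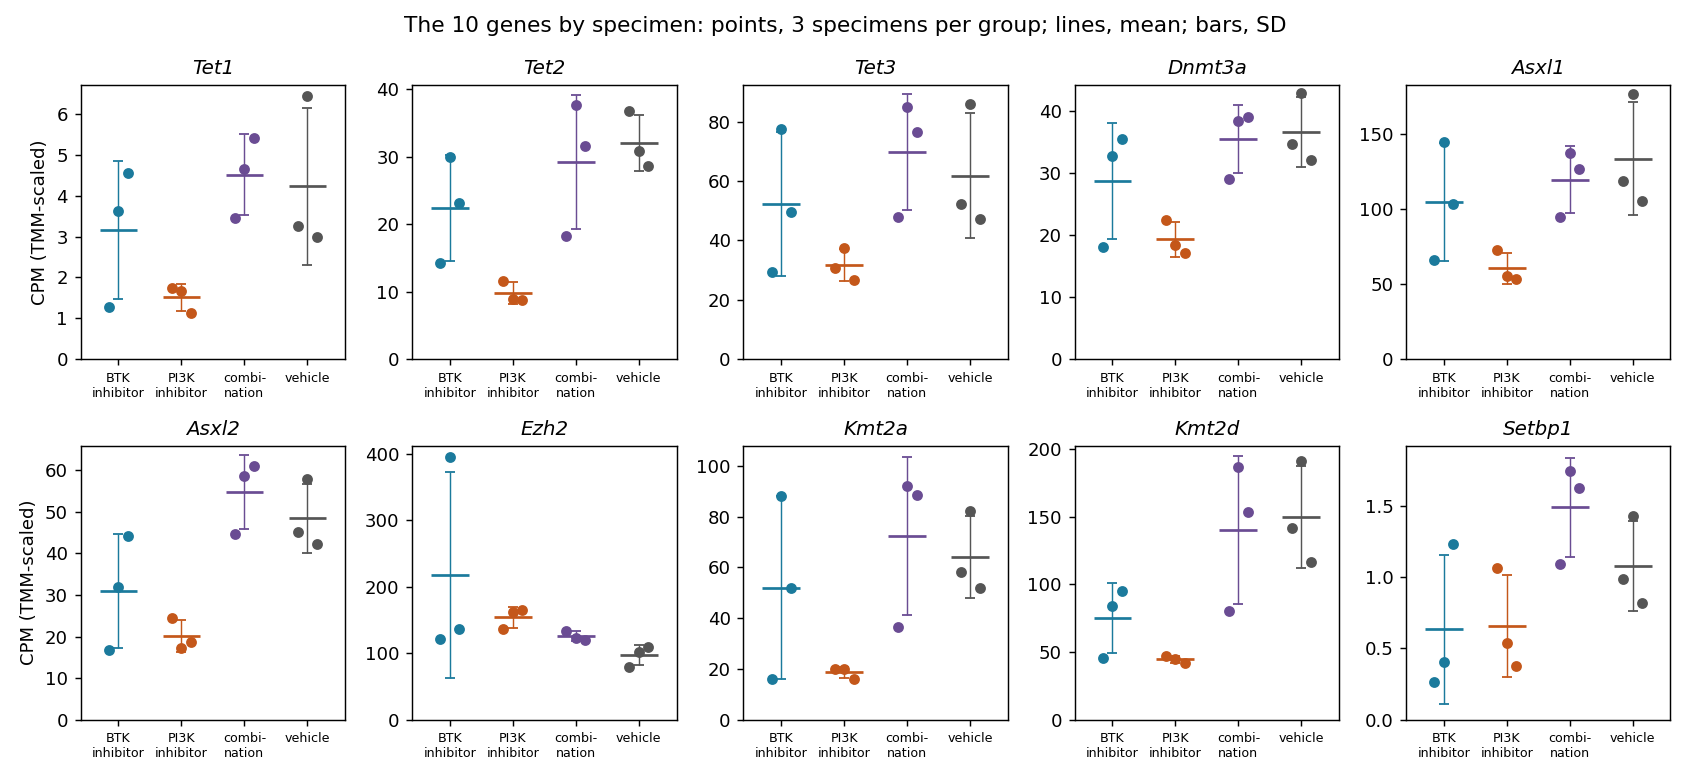
CPM (TMM-scaled, y axis of each panel, from 0) of each of the 10 genes in the BTK inhibitor, PI3K inhibitor, combination and vehicle groups, with 1 point per specimen, a line at the mean of 3 and bars of 1 SD. For Tet2, the PI3K inhibitor specimens lie between 8.80 and 11.6 CPM and the vehicle specimens between 28.6 and 36.7 CPM, and for Ezh2 the highest point is BTK inhibitor replicate 5 at 395.4 CPM.

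The comparison of the PI3K inhibitor with vehicle asks what inhibition of p110 delta does to the mutant marrow. In that comparison 6 of the 10 genes fell: Tet2, Kmt2d, Kmt2a, Asxl2, Asxl1 and Dnmt3a. A gene is called here at an adjusted p under 0.05 in the edgeR quasi-likelihood test, Benjamini-Hochberg adjusted over all 12742 genes. Of all tested genes, 5.82% were called lower and 4.84% higher (10.7% in all), and none of the 10 was called higher. The median log2 difference of the 10 was -1.20, against -0.01 over all tested genes. In bulk marrow, fewer cells of a type that expresses a gene and less of its RNA per cell cannot be told apart.

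Among the DNA methylation genes, Tet2, the dioxygenase most often mutated in myeloid disease, had 11.6, 8.95 and 8.80 CPM in PI3K inhibitor specimens, against 36.7, 30.8 and 28.6 CPM in vehicle specimens. The highest PI3K inhibitor specimen was less than the lowest vehicle specimen by a wide margin, and Tet2 fell by 1.71 ± 0.33 on the log2 scale (SE; 3.26-fold lower; adjusted p = 0.0388, edgeR quasi-likelihood, Benjamini-Hochberg). Dnmt3a, the de novo methyltransferase, had 22.4, 18.3 and 17.0 CPM in PI3K inhibitor specimens, against 34.7, 42.8 and 32.1 CPM in vehicle specimens. It fell by 0.92 ± 0.28 without overlap, and its adjusted p of 0.04996 (edgeR quasi-likelihood, Benjamini-Hochberg) lay at the threshold. Dnmt3a was not called with RLE scaling, upper-quartile scaling or no filter on low counts. Tet1 and Tet3, the other two dioxygenases of the family, did not pass. Tet1 had 1.74, 1.67 and 1.14 CPM in PI3K inhibitor specimens, against 3.26, 6.45 and 2.98 CPM in vehicle specimens (log2 difference -1.47 ± 0.47, adjusted p = 0.0549, edgeR quasi-likelihood, Benjamini-Hochberg). Tet3 had 30.8, 37.3 and 26.8 CPM, against 52.1, 86.0 and 47.3 CPM in vehicle specimens (-0.96 ± 0.36, adjusted p = 0.0822 by the same edgeR test). For both genes all 3 PI3K inhibitor specimens were below all 3 vehicle specimens.

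Of the MLL/COMPASS methyltransferases, Kmt2d, which acts at enhancers, had 47.4, 44.7 and 42.2 CPM in PI3K inhibitor specimens, against 141.2, 190.8 and 116.5 CPM in vehicle specimens. It fell by 1.74 ± 0.35 (3.34-fold lower; adjusted p = 0.0388, edgeR quasi-likelihood, Benjamini-Hochberg), and the 3 PI3K inhibitor specimens were close together. Kmt2a, the MLL gene rearranged in human leukemia, had 19.8, 20.2 and 16.0 CPM in PI3K inhibitor specimens, against 58, 82.3 and 51.8 CPM in vehicle specimens, and fell by 1.78 ± 0.50 (3.43-fold lower; adjusted p = 0.0437, the same edgeR test). Groups did not overlap for either gene.

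Asxl1, the more highly expressed of the Asxl pair, had 72.3, 55.2 and 53.2 CPM in PI3K inhibitor specimens, against 118.7, 176.0 and 105 CPM in vehicle specimens. Asxl2 had 24.4, 17.3 and 18.7 CPM, against 45.1, 57.9 and 42.2 CPM in vehicle specimens. Both fell without overlap, Asxl1 by 1.14 ± 0.32 (adjusted p = 0.0429) and Asxl2 by 1.26 ± 0.32 (adjusted p = 0.0407; edgeR quasi-likelihood, Benjamini-Hochberg). Ezh2 had 136.0, 161.7 and 164.4 CPM in PI3K inhibitor specimens, against 80.0, 102.0 and 108.7 CPM in vehicle specimens. Every PI3K inhibitor specimen was above every vehicle specimen, but the difference of 0.67 ± 0.38 did not pass (adjusted p = 0.216, edgeR quasi-likelihood, Benjamini-Hochberg). Setbp1 had 1.06, 0.534 and 0.380 CPM in PI3K inhibitor specimens, against 0.984, 1.43 and 0.821 CPM in vehicle specimens, with overlap, and its difference of -0.67 ± 0.55 was not detectable at 6 to 35 counts per specimen. In all, 8 of the 10 genes were lower without overlap between specimens, as were 26.3% of tested genes, and Ezh2 was higher without overlap, as were 24.9%.

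These calls rested on the full set of specimens. When 1 specimen was left out, and it was any vehicle or combination specimen or PI3K inhibitor replicate 8 or 9, edgeR called 0 of the 10 genes and 0 of all tested genes. Without BTK inhibitor replicate 5, a specimen of neither group, 9 were called, 8 lower and Ezh2 higher (background 16.7% lower and 17.1% higher).

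The differences were then set against genes of like Length, taken as the 200 tested genes nearest in Length to each gene. Genes as long as these were lower with the PI3K inhibitor as well. For the 9 long genes, the median log2 difference of the neighbours was between -1.20 and -0.71, and 22% to 40% of the neighbours were called lower. For Ezh2 the neighbours' median was -0.10, and 1.5% were called lower and 2% higher. Between 59% and 75% of the neighbours of the 9 long genes were lower without overlap between specimens, beside the 8 of 9 found here.

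Tet2 differed most from its neighbours among the long genes, lying 0.70 log2 below their median of -1.01, at the 9.5th percentile of the 200. Kmt2a lay 0.58 below (18th percentile), Kmt2d 0.54 below (19.5th), Asxl1 0.43 below (26.5th), Tet1 0.28 below (32nd) and Asxl2 0.25 below (31.5th). Dnmt3a, although called, lay 0.10 above its neighbours' median, Tet3 lay 0.12 above and Setbp1 lay 0.36 above. Ezh2 lay 0.77 above, at the 88.5th percentile. The percentiles describe these libraries and are no test, and neighbour sets of genes of similar Length share genes.

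**Figure D3:**
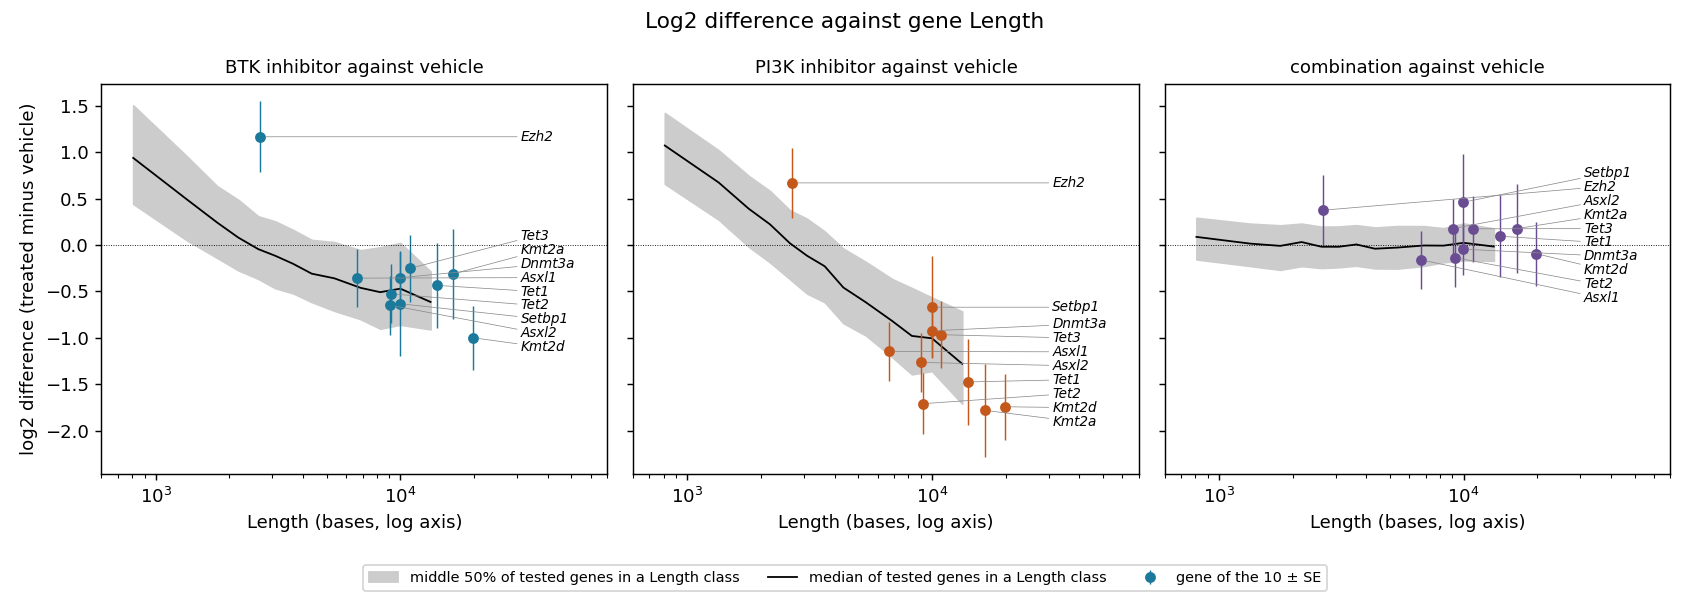
Log2 difference from vehicle (y axis) against Length (x axis, bases, log scale) for the BTK inhibitor, the PI3K inhibitor and the combination, with a point and SE bar for each of the 10 genes, a line at the median of all tested genes in each Length class and grey for their middle 50%. With the PI3K inhibitor the median goes from 1.07 in the shortest class (median Length 809 bases) to -1.28 in the longest (13276 bases), and with the combination it stays between -0.04 and 0.09.

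With a Length offset in the model (a spline of log2 Length fitted in each library), edgeR called 0 of the 10 genes and 0 of 12742 tested genes in the comparison of the PI3K inhibitor with vehicle, although 2812 genes had an unadjusted p under 0.05. The log2 difference was then -0.84 ± 0.27 for Tet2 (adjusted p = 0.111, edgeR quasi-likelihood, Benjamini-Hochberg), -0.67 ± 0.31 for Kmt2a, -0.60 ± 0.20 for Kmt2d and 0.70 ± 0.43 for Ezh2. It was 0.01 ± 0.18 for Dnmt3a, 0.06 ± 0.27 for Tet3 and 0.24 ± 0.41 for Setbp1, so that the direction of these 3 genes turned. Tet1 (-0.38 ± 0.30), Asxl1 (-0.40 ± 0.27) and Asxl2 (-0.37 ± 0.18) kept a negative sign.

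When BTK inhibitor replicate 5 was also left out, 4 of the 10 genes were called with the offset, against a background of 9.05% lower and 9.56% higher among 12948 genes. Tet2 fell by 0.85 ± 0.21 (adjusted p = 0.0176), Kmt2d by 0.63 ± 0.17 (adjusted p = 0.0263) and Kmt2a by 0.69 ± 0.20 (adjusted p = 0.0337), and Ezh2 rose by 0.70 ± 0.17 (adjusted p = 0.0167; edgeR quasi-likelihood, Benjamini-Hochberg). Leaving out any 1 of the other 11 specimens with the offset gave 0 calls among the 10. Over all 12 such fits the Tet2 difference ranged from -1.01 to -0.66 with adjusted p of 0.0176 to 0.391, the Kmt2d difference from -0.71 to -0.56 with 0.0263 to 0.404, the Kmt2a difference from -0.81 to -0.62 with 0.0337 to 0.526, and the Ezh2 difference from 0.58 to 0.80 with 0.0167 to 0.603 (edgeR quasi-likelihood, Benjamini-Hochberg).

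**Figure D4:**
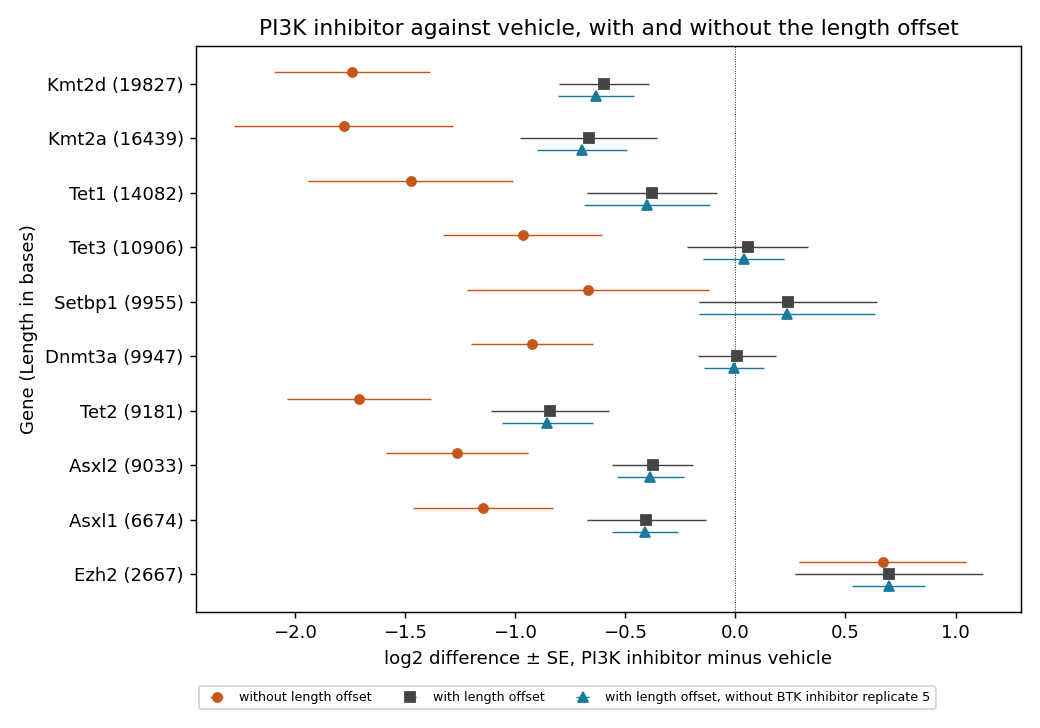
Log2 difference between the PI3K inhibitor and vehicle with its SE (x axis) for the 10 genes, ordered by Length (y axis), without the Length offset (circles), with it (squares), and with it but without BTK inhibitor replicate 5 (triangles). Dnmt3a is at -0.92 without the offset and 0.01 with it, Tet2 is at -1.71 and -0.84, and Ezh2 is at 0.67 and 0.70.

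The BTK inhibitor was compared with vehicle in the same way. None of the 10 genes was called, and neither was any other gene (0%), while 3153 genes (24.7%) had an unadjusted p under 0.05, DESeq2 called 1085 genes (8.52%), 1 of the 10 among them and higher, and limma voom called 2950 (23.2%), 6 of the 10 among them and lower. Kmt2d had 45.9, 83.8 and 95 CPM in BTK inhibitor specimens, against 141.2, 190.8 and 116.5 CPM in vehicle specimens. The groups did not overlap, and the log2 difference was -0.998 ± 0.35 (adjusted p = 0.142, edgeR quasi-likelihood, Benjamini-Hochberg). Ezh2 had 121.0, 395.4 and 136.5 CPM in BTK inhibitor specimens, against 80.0, 102.0 and 108.7 CPM in vehicle specimens. The groups again did not overlap, and the difference of 1.16 ± 0.38 (adjusted p = 0.136, the same edgeR test) was 0.41 without replicate 5, the highest specimen. Kmt2d and Ezh2 were the 2 genes of the 10 without overlap, against 9.61% of tested genes lower and 8.92% higher.

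For the other 8 genes the BTK inhibitor specimens overlapped the vehicle range. Tet2 had 14.2, 29.9 and 23.1 CPM with the BTK inhibitor, against 36.7, 30.8 and 28.6 CPM with vehicle, and Kmt2a had 16.2, 88.1 and 51.9 CPM, against 58, 82.3 and 51.8 CPM with vehicle. Replicate 4, with a Length slope of -0.28, was the lowest BTK inhibitor specimen for all 10 genes. The log2 differences of the other 8 genes were -0.65 to -0.25. Against genes of like Length, 3 of the 10 lay below the neighbours' median and 7 above, and without replicate 5 these became 6 and 4. A date in the titles has day 24 in 11 specimens but day 30 in BTK inhibitor replicate 6, and the labels do not say what was done then. Without replicate 6, and so within 1 date, 3 of the 10 were called: Asxl2 (-1.01, adjusted p = 0.0288) and Kmt2d (-1.22, adjusted p = 0.0294) lower and Ezh2 (1.41, adjusted p = 0.0149) higher (edgeR quasi-likelihood, Benjamini-Hochberg), beside 29.4% of all tested genes. Over all 12 fits that leave out 1 specimen, the difference was 0.41 to 1.45 for Ezh2 (adjusted p of 0.0149 to 0.446, edgeR), -1.22 to -0.74 for Kmt2d (0.0294 to 0.446) and -1.01 to -0.35 for Asxl2 (0.0288 to 0.480), and none of these 3 was called in the other 11.

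The combination was compared with vehicle to see what both inhibitors did together. None of the 10 genes was called, nor any other gene (0%), with 626 genes (4.91%) at an unadjusted p under 0.05, 22 genes called by DESeq2 and 1231 by limma voom, none of them among the 10. Tet2 had 18.2, 37.6 and 31.6 CPM in combination specimens, against 36.7, 30.8 and 28.6 CPM in vehicle specimens. The ranges overlapped, and the log2 difference was -0.14 with a 95% interval of -0.82 to 0.54. Kmt2d had 80.0, 186.7 and 153.5 CPM in combination specimens, against 141.2, 190.8 and 116.5 CPM in vehicle specimens, with a difference of -0.09 (95% interval -0.83 to 0.64). Replicate 10 had the lowest combination value for all genes but Ezh2. Differences of the 10 genes lay between -0.16 (Asxl1) and 0.46 (Setbp1), and their intervals reached from -0.86 to 1.58, so a change the size of the one seen for Tet2 with the PI3K inhibitor alone lay outside the interval of Tet2 here. Ezh2 had 134.0, 123.3 and 119.6 CPM in combination specimens, against 80.0, 102.0 and 108.7 CPM in vehicle specimens, higher without overlap, as were 9.32% of tested genes (difference 0.37, 95% interval -0.44 to 1.18).

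Set against the PI3K inhibitor alone, the combination had higher values without overlap for 9 of the 10 genes, as did 26.5% of tested genes, and lower ones for Ezh2, as did 24.6%. Kmt2a had 36.5, 92.2 and 88.5 CPM in combination specimens, against 19.8, 20.2 and 16.0 CPM in PI3K inhibitor specimens. Asxl2 had 44.7, 58.5 and 61.0 CPM in combination specimens, against 24.4, 17.3 and 18.7 CPM in PI3K inhibitor specimens. The differences were 1.95 ± 0.50 for Kmt2a, 1.65 ± 0.35 for Kmt2d, 1.57 ± 0.33 for Tet2 and 1.44 ± 0.32 for Asxl2, all at an adjusted p of 0.125 (edgeR quasi-likelihood, Benjamini-Hochberg). This test called 0 genes (0%) of 12742. At an unadjusted p under 0.05, 8 of the 10 genes and 3660 tested genes (28.7%) passed. DESeq2 and the edgeR fit without BTK inhibitor replicate 5 each called 8 of the 10 higher, against 9.62% and 19.3% of all tested genes in either direction. Genes of like Length were higher too: 67.5% to 76% of the neighbours of the 9 long genes were also higher without overlap, and the neighbours' medians were 0.74 to 1.28. With the Length offset Tet2 differed by 0.58 ± 0.27, Kmt2a by 0.63 ± 0.31 and Asxl2 by 0.49 ± 0.18, and Dnmt3a by -0.13 ± 0.18. Kmt2d then differed by only 0.26 and Tet3 by 0.04, and 0 of the 10 genes were called.

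Between the combination and the BTK inhibitor, and between the PI3K and BTK inhibitors, edgeR called no gene (0%), with 2569 and 791 genes at an unadjusted p under 0.05. Asxl2 was the 1 gene of the 10 that did not overlap between the combination and the BTK inhibitor (44.7 to 61.0 CPM in combination specimens, against 16.8 to 44.1 CPM in BTK inhibitor specimens; 8.07% of tested genes were higher without overlap). Tet2 was the 1 gene that did not overlap between the PI3K and BTK inhibitors (8.80 to 11.6 CPM in PI3K inhibitor specimens, against 14.2 to 29.9 CPM in BTK inhibitor specimens; 2.46% were lower without overlap).

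The interaction of the inhibitors, the difference between the combination and the PI3K inhibitor minus the difference between the BTK inhibitor and vehicle, was called for 7 of the 10 genes, all positive. It was 2.64 ± 0.49 on the log2 scale for Kmt2d, 2.26 ± 0.69 for Kmt2a, 2.10 ± 0.45 for Tet2, 2.09 ± 0.45 for Asxl2 and 2.00 ± 0.65 for Tet1, with 1.34 ± 0.44 for Asxl1 and 1.23 ± 0.39 for Dnmt3a (adjusted p of 0.0202 to 0.0403, edgeR quasi-likelihood, Benjamini-Hochberg). Of all tested genes 12% were called positive and 15.6% negative, 27.6% in all. Among the 200 genes of like Length, 38.5% to 56.5% were called positive for the 9 long genes. Ezh2 had the opposite sign (-1.46 ± 0.53, adjusted p = 0.0566, the same edgeR test), at the 5.5th percentile of its neighbours. With the Length offset 0 of the 10 and 1 of all tested genes (0.00785%) were called. When 1 specimen was left out, 0 of the 10 were called if it was vehicle replicate 2, replicate 8 or 9 of the PI3K inhibitor, or replicate 11 or 12 of the combination, and 3 were called without vehicle replicate 1. The interaction uses the same specimens as the comparisons of 2 groups, so its values are no separate evidence.

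Other genes of the same pathways were read from lists. Of 22 genes of the MLL and COMPASS complexes, 5 fell and 1 rose with the PI3K inhibitor relative to vehicle, beside 5.82% of all tested genes called lower, 4.84% called higher and 22% of the neighbours of Asxl1 in Length called lower. The list had a median log2 difference of -0.78 (-0.39 with the Length offset) at a median Length of 5772 bases. In the offset fit without BTK inhibitor replicate 5, 3 genes of the list were called higher and 6 lower. Of all tested genes, 9.56% were called higher and 9.05% lower in that fit. Setd1b, another histone H3 lysine 4 methyltransferase, averaged 28.2 ± 4.86 CPM with the PI3K inhibitor and 101.7 ± 33.6 CPM with vehicle (SD, n = 3 each) and fell by 1.85 ± 0.38. Aff4, a scaffold of the super elongation complex that takes part in MLL fusions, fell by 1.53 ± 0.34, and the COMPASS-associated coactivator Ncoa6 fell by 1.56 ± 0.37, these 3 at an adjusted p of 0.0388 to 0.0403 (edgeR quasi-likelihood, Benjamini-Hochberg). The other 2 genes that fell were the methyltransferase Kmt2b (by 1.26 ± 0.36) and the elongation scaffold Aff1 (by 1.51 ± 0.44), and the gene that rose was Dpy30, a core COMPASS subunit (by 1.26 ± 0.35); these 3 are named after their values were seen. Of 22 other chromatin and cohesin genes mutated in myeloid leukemia, 3 fell and 0 rose, with 20 negative differences and a median of -0.77 (-0.02 with the offset). In the offset fit without BTK inhibitor replicate 5, 1 gene of this list was called higher and 2 lower. Ep300, a histone acetyltransferase, averaged 34.0 ± 9.26 CPM with the PI3K inhibitor and 163.7 ± 51.8 CPM with vehicle and fell by 2.27 ± 0.46. Setd2, the histone H3 lysine 36 methyltransferase, fell by 1.31 ± 0.34 and the corepressor Bcorl1 by 1.38 ± 0.39.

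Among 23 polycomb genes, 2 fell with the PI3K inhibitor, beside 5.82% of all tested genes called lower. These were Kdm6b, a histone H3 lysine 27 demethylase placed in that list, by 1.60 ± 0.35, and Ezh1, the paralog of Ezh2, by 0.72 ± 0.21 (adjusted p = 0.0394 and 0.0477, edgeR quasi-likelihood, Benjamini-Hochberg). With the Length offset, in which no tested gene was called, the difference was -0.87 for Kdm6b and -0.35 for Ezh1. When BTK inhibitor replicate 5 was left out under this offset, 4 polycomb genes were called higher and 1 lower, beside 9.56% and 9.05% of tested genes. Ezh1 averaged 20.9 ± 1.05 CPM with the PI3K inhibitor and 34.5 ± 1.49 CPM with vehicle. Over all 12 specimens the paralogs had differences of opposite sign both without and with the offset, and Ezh2 was called in neither fit. The transcription factor Foxk1, a partner of Bap1, was the 1 gene that fell among 11 tested partners of Asxl, Bap1 and Setbp1 (by 1.71 ± 0.44), beside the same 5.82% of tested genes. None of 15 tested DNA methylation partners passed; Dnmt1, the maintenance methyltransferase, averaged 133.9 ± 31.7 CPM with the PI3K inhibitor and 283.3 ± 143.9 CPM with vehicle (-1.08 ± 0.45, adjusted p = 0.108, the same edgeR test). None of 12 tested HOX and MEIS target genes passed, and their median was -0.02. In the comparisons of the BTK inhibitor and of the combination with vehicle, edgeR called 0 of 12742 tested genes (0%), and so 0 genes of these 6 lists.

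Cell type markers moved with the PI3K inhibitor too. Of all tested genes, 5.82% were called lower and 4.84% higher. Of 15 monocyte markers, 4 fell relative to vehicle (Fn1, Ace, F13a1 and Cx3cr1) with a median of -0.78 over the list, at a summed 2038 to 2618 CPM in PI3K inhibitor specimens and 3312 to 3784 CPM in vehicle specimens. Of 13 tested erythroid markers, 5 rose, among them Gata1, Epor and Car2, with a median of 1.06, at 3016 to 5897 CPM in PI3K inhibitor specimens and 866 to 3544 CPM in vehicle specimens. Of 15 proliferation markers, 4 rose (Tk1, Pcna, Cdk1 and Tyms) with a median of 0.50, at 4160 to 5771 CPM in PI3K inhibitor specimens and 3021 to 4473 CPM in vehicle specimens. Not every gene of these lists moved the same way. Differences were 2 positive and 13 negative in the monocyte list and 10 positive and 3 negative in the erythroid list. In the proliferation list 12 were positive and 3 negative. With the Length offset, in which no tested gene was called, the medians were -0.73 for monocyte, 0.90 for erythroid and 0.54 for proliferation markers. Of 15 neutrophil markers, Cxcr2 fell, and the list held 7 positive and 8 negative differences with a median of -0.20 (-0.51 with the Length offset). The neutrophil sum was 108700 to 208600 CPM in PI3K inhibitor specimens and 96100 to 122200 CPM in vehicle specimens. In the stem and progenitor, B-lineage, T and NK cell and stroma lists 0 were called. In combination specimens the monocyte sum was 2392 to 2899 CPM, also below vehicle, and the erythroid sum was 4632 to 5018 CPM. The neutrophil sum in combination specimens was 64840 to 83050 CPM, below every vehicle specimen, with all 15 differences from vehicle negative. None of the 15 was called, in a comparison in which no tested gene was called. The part of these cell types in the differences of the 10 genes was not tested.

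Across the 12 specimens the 9 genes other than Ezh2 varied together. The 36 pairwise Pearson correlations of log2 CPM were 0.58 to 0.97 with a median of 0.91, and those of Ezh2 with the 9 others were -0.48 to 0.05. After removal of each specimen's trend with Length, the 36 correlations were -0.58 to 0.83 with a median of 0.33. All these points share libraries and their depth, and the raw values share the Length trend as well. The genes most like each of the 9 on raw log2 CPM were themselves mostly long (18 genes of 3637 to 18792 bases, median 8888.5, r of 0.95 to 0.996), such as Zcchc2 for Tet2, Nsd1 and Kmt2c for Kmt2a, and Rere and Setd1b for Kmt2d. After removal of the trend they had a median Length of 4076.5 bases. Zcchc2 remained the nearest gene to Tet2 (r = 0.97 before and 0.92 after), and Supt16 and Psip1 were nearest to Ezh2 (r = 0.99 each), where BTK inhibitor replicate 5 is the highest specimen.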

How the data were processed

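RNA from bone marrow mononuclear cells of 12 specimens was sequenced and deposited by the authors as 1 table of raw counts per gene, with mm10 coordinates and Length. STAR, featureCounts and mm10 are named per the submitters' processing notes, with no version given in the sources used here. The labels list 24 samples, 2 per specimen, and the table has 1 column per specimen; how the 2 were joined is not given. All per-sample columns were used (0 left out). Libraries came from a SMART-Seq and Nextera XT preparation, per the labels' protocols, which does not mark strand.

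Counts were tested with edgeR 4.0.16 in R 4.3.3 (TMM scaling, filterByExpr with a smallest count of 10 and a smallest total of 15, robust quasi-likelihood fit of 4 group means over 12 specimens), with Benjamini-Hochberg adjustment over 12742 genes and a threshold of 0.05. The scripts were tested on simulated data. Any Length trend in those data was the same in every group, so they do not cover a trend that differs between groups, as here. Of 24421 genes, 6573 had no count. CPM is TMM-scaled, log2 CPM has a prior count of 2, and intervals are 95% t intervals. SE is that of the log2 difference. The Length offset was fitted in each library as a natural spline (5 degrees of freedom). DESeq2 1.42.0, limma voom 3.58.1 with quality weights, other scalings and filters, a fit of only the 2 or 4 groups in a comparison, and omission of each specimen in turn were alternatives. Leaving out each specimen under the Length offset was added after the data were seen. Total counts of 8993950 to 22154833 per specimen set the counting error, and Setbp1 and Tet1 had the fewest counts of the 10 genes. No 2 specimens of the same group had equal counts within counting error (20.5 to 633 chi-square units for each degree of freedom).

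The 10 genes and the lists were chosen with earlier results of these data known. All 10 are named. From each other list, up to 3 genes that pass and have the smallest p are named per comparison, or up to 2 where none passes. Kmt2b, Aff1, Dpy30, Cx3cr1 and Tyms are named outside this rule, after their values were seen. For each of the 10 genes, the 2 with the highest correlation over 12 specimens were selected, before and after removal of the trend with Length, and a part of these is named.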

Additional observations from a re-analysis of the deposited data

Results flagged for a closer look

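For 7 of the 10 genes the effect of the BTK inhibitor given with the PI3K inhibitor (combination minus PI3K inhibitor) differed from its effect given without it (BTK inhibitor minus vehicle), in the edgeR quasi-likelihood test of the interaction, Benjamini-Hochberg adjusted. Of all tested genes, 27.6% were called in this test, 12% positive and 15.6% negative. Among the 200 genes nearest in Length to each of the 9 long genes, 38.5% to 56.5% were called positive. Omitting vehicle replicate 2 alone left 0 of the 10 called, and the same held for some single PI3K inhibitor and combination specimens. Kmt2d differed by 2.64 on the log2 scale, with effects of 1.65 with and -0.998 without the PI3K inhibitor. Kmt2a differed by 2.26 (1.95 and -0.31), Tet2 by 2.10 (1.57 and -0.53) and Asxl2 by 2.09 (1.44 and -0.65). Tet1 differed by 2.00 (1.57 and -0.43), Asxl1 by 1.34 (0.99 and -0.36) and Dnmt3a by 1.23 (0.88 and -0.35). With the Length offset the same interaction was 0.81 for Kmt2d, 0.67 for Asxl2, 0.59 for Tet2, 0.58 for Kmt2a, 0.36 for Tet1, 0.03 for Asxl1 and -0.29 for Dnmt3a, and none of these was called. The part of the Length trend of the specimens in the interaction was not tested beyond this.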

How the results depend on the processing

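For the PI3K inhibitor against vehicle, DESeq2, limma voom, RLE and upper-quartile scaling, both other filters, removal of Rn45s and a fit of only the groups compared called 5 to 9 of the 10 genes, beside 7.33% (no filter) to 37.4% (limma voom, 9 of the 10) of all tested genes, and the Length offset called 0 of either. The offset turned the sign of Tet3 (0.0557), Dnmt3a (0.0081) and Setbp1 (0.24), and without BTK inhibitor replicate 5 as well it did so for Tet3 (0.0389) and Setbp1 (0.23). For the BTK inhibitor against vehicle, DESeq2 called 1 (8.52% of all genes) and limma voom 6 (23.2%), and 6 of the 10 lay below genes of like Length without replicate 5, against 3 with it. The offset turned Tet1 (0.0258), Tet3 (0.32), Dnmt3a (0.16; 0.0197 without replicate 5), Asxl1 (0.19) and Kmt2a (0.0489). For the combination against vehicle, limma voom turned Dnmt3a (0.11), Asxl1 (0.0685) and Kmt2d (0.10), and the offset Kmt2a (-0.0373; -0.0262 without replicate 5). For the combination against the BTK inhibitor, limma voom called 9 (39% of all genes), and the offset turned Tet1 (-0.0158), Tet2 (-0.25), Tet3 (-0.22), Dnmt3a (-0.28; -0.14 without replicate 5), Asxl1 (-0.37) and Kmt2a (-0.0862). For the combination against the PI3K inhibitor, DESeq2 called 8 (9.62% of all genes), limma voom 9 (41.8%) and the fit of only the groups compared 8 (32.6%), and the offset turned Dnmt3a (-0.13; -0.11 without replicate 5). For the PI3K inhibitor against the BTK inhibitor, limma voom turned Asxl2 (0.0255), Ezh2 (0.23) and Setbp1 (0.83), the offset Setbp1 (0.46), and the offset without replicate 5 Tet3 (0.12), Ezh2 (0.27) and Setbp1 (0.34). For the interaction the offset called 0, with and without replicate 5, and turned Tet3 (-0.27) and Dnmt3a (-0.29; -0.13 without replicate 5). Beyond the construction of each alternative, the cause was not tested.

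Leaving out 1 specimen at a time gave 0 to 9 calls for the PI3K inhibitor against vehicle (0 to 4 with the offset), 0 to 3 for the BTK inhibitor against vehicle, 0 to 3 for the combination against the BTK inhibitor, 0 to 8 for the combination against the PI3K inhibitor, and 0 to 9 for the interaction. The share of all genes called in these fits reached 33.8% (18.6% with the offset), 29.4%, 26.8%, 19.3% and 44%, in the same order, and was 0% at the lowest. It turned a sign for the BTK inhibitor against vehicle in Tet1 (-0.94 to 0.0037), Tet3 (-0.64 to 0.0589) and Kmt2a (-0.91 to 0.12), and for the combination against vehicle in Tet1 (-0.11 to 0.53), Tet2 (-0.36 to 0.11), Dnmt3a (-0.13 to 0.0823), Asxl1 (-0.31 to 0.091), Kmt2a (-0.0356 to 0.49) and Kmt2d (-0.36 to 0.18). It also did so for Asxl1 in the combination against the BTK inhibitor (-0.0478 to 0.51), and for Ezh2 (-0.78 to 0.27) and Setbp1 (-0.59 to 1.14) in the PI3K inhibitor against the BTK inhibitor. No paired analysis was possible because the groups share no replicate numbers.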

Other observations

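Levels of related genes within a specimen were set against each other per length, for pairs chosen after their values were seen and with no test. The log2 ratio of Dnmt3a to Tet2, the methyltransferase and the dioxygenase of similar Length, was 0.83 to 0.91 in PI3K inhibitor specimens, -0.09 to 0.55 in combination specimens, 0.01 to 0.50 in BTK inhibitor specimens and -0.20 to 0.36 in vehicle specimens. The PI3K inhibitor specimens were above all others. The log2 ratio of Asxl2 to Asxl1 was -1.67 to -1.49 in combination specimens, -2.61 to -1.66 in BTK inhibitor specimens, -2.10 to -1.94 in PI3K inhibitor specimens and -2.04 to -1.75 in vehicle specimens, and combination specimens were above PI3K inhibitor and vehicle specimens. The log2 ratio of Kmt2a to Kmt2d was -1.12 to -0.87 in PI3K inhibitor specimens and -1.01 to -0.90 in vehicle specimens, with overlap.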
